A study of Mus musculus with 8 samples.

Results

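The genes described here are 39 enzymes and regulators that make, interconvert and degrade sphingolipids, out of 48795 genes quantified in peritoneal macrophages (pMacs). They were taken from a fixed list of symbols and matched by Ensembl identifier, a rule that uses no measured value. All 39 genes were found and all 39 passed the filter on low counts, which left 13040 genes for testing. Polyadenylated RNA was sequenced from pMacs of 4 WT (C57BL/6) mice and 4 CD1d-KO mice, with replicate numbers 1, 2, 3 and 5 in each genotype, and the comparison asked how the transcriptome of resting pMacs differed when CD1d, which presents lipids to T cells, was missing. The cells came from peritoneal lavage of adult mice, and the labels name no stimulus. The study describes the controls for sequencing as littermates, and the mice of its experiments as matched for age and sex. The study states that pMacs were purified for sequencing, and how they were purified for these libraries is not given in the sources used here. The deletion affects every cell of the CD1d-KO mouse, which also lacks natural killer T cells, and the study describes a germline deletion of *Cd1d1* and *Cd1d2* as well as a floxed allele removed by PGK-Cre without saying which of them gave these libraries.

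Sphingolipids are built on ceramide. Serine palmitoyltransferase starts the pathway in the endoplasmic reticulum, ceramide synthases add a fatty acid, and a desaturase completes ceramide. From there ceramide is turned into sphingomyelin, into glucosylceramide and the larger glycosphingolipids, or into sphingosine and its phosphate. Macrophages take up large amounts of membrane from dead cells, so that their lysosomes carry a full set of sphingolipid hydrolases, and self glycosphingolipids belong to the lipids that CD1d can bind.

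Between 13698864 and 19059432 reads were assigned to genes per library. The targeted gene *Cd1d1* (ENSMUSG00000028076, chromosome 3 of GRCm38 from 86995834 to 86999441) had 68.2, 175, 96.1 and 141 normalized counts in WT replicates 1, 2, 3 and 5, and 1.14, 0 and 1.10 in CD1d-KO replicates 2, 3 and 5. The library labelled CD1d-KO replicate 1 had 60.6 normalized counts of *Cd1d1*, which goes against its label. It is kept under its label, and the counts of members and the log2 fold changes are also given without the pair numbered 1. Macrophage markers (*Adgre1*, *Csf1r*, *Cd68*, *Lyz2*, *Mertk*, *Itgam*) summed to 23189 to 28355 TPM (transcript abundance corrected for gene length and library size) in WT and 18264 to 28563 in CD1d-KO pMacs, and markers of B cells to 179.6 to 535.5 TPM in WT and 120.0 to 915.5 in CD1d-KO pMacs. Markers of T and natural killer cells, mast cells, eosinophils and mesothelial cells summed to at most 24.4, 20.6, 7.14 and 2.85 TPM in any library. Among 8 markers of large peritoneal macrophages, *Timd4* (log2 fold change 0.39, unadjusted p = 0.0071, adjusted p = 0.201 in edgeR) and *Selp* (0.43, unadjusted p = 0.026, adjusted p = 0.319) were higher in CD1d-KO pMacs. The sum of all 8 markers was higher in CD1d-KO in 2 of 4 pairs. Most of that sum was *Saa3* (27176 of 31308 TPM in WT replicate 1), so it says little about the other markers. Markers of small peritoneal macrophages and dendritic cells summed to 1350 to 2943 TPM in WT and 888 to 3993 in CD1d-KO, higher in 3 of 4 pairs. In bulk RNA, fewer cells of a type and less RNA per cell cannot be told apart.

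Sequence upstream of the start site is shown for 4 genes that stand for the patterns described below. *Sgms1* and *Degs1* were the members with the lowest p-values among those lower in CD1d-KO pMacs, and *Cers6* and *Glb1* are members of opposite ends of the pathway whose windows hold an E-box. Each line gives bases before the RefSeq start in GRCm38.p6, 5′ to 3′ on the strand of the gene, up to the nearest annotated exon, and *Sgms1* is shown at the most upstream of its 4 RefSeq starts. Capitals mark the E-box CACGTG, which reads the same on both strands, and the GC box, GGGCGG or CCGCCC on the other strand.
Sgms1, chr19:32388513-32388762, minus strand: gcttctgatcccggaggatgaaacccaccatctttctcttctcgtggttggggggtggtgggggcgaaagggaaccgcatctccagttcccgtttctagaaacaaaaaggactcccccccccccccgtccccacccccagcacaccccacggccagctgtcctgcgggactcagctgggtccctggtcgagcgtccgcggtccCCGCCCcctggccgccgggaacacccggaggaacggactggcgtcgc
Degs1, chr1:182282225-182282445, minus strand: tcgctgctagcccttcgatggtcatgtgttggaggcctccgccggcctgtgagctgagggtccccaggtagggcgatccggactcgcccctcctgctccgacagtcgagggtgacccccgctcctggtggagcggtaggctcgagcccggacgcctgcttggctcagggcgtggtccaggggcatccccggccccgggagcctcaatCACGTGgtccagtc
Cers6, chr2:68861191-68861440, plus strand: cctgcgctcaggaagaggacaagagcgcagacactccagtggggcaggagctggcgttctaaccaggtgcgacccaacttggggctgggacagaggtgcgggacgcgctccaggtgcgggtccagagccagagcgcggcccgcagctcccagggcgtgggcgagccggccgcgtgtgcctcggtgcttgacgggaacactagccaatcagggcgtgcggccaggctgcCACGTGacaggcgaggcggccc
Glb1, chr9:114400828-114401075, plus strand: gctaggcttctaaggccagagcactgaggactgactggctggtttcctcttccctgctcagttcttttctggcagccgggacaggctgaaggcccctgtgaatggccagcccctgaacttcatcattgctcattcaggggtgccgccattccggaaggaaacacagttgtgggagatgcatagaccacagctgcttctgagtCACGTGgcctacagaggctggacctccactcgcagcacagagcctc

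RefSeq windows of 250 bases before the start were found for 35 of the 39 members. An E-box lay in at least 1 window of 9 members (25.7%), which were *Arsa*, *Cers2*, *Cers6*, *Degs1*, *Gla*, *Glb1*, *Sgms2*, *Smpd2* and *Sphk1*. Of the 9267 tested genes with a window, 10.1% held an E-box by the same count, as did 6.02% of all 32851 windows. The first base of the E-box lay 16 bases before the start in *Arsa*, 22 in *Cers6*, 43 in *Degs1* and 48 in *Glb1*, and *Gla* held 2 of them, at 194 and 227 bases. A GC box was present in 25 of the 35 members (71.4%), against 63.5% of the tested genes. The E-box was found in 3 of 7 genes of glycosphingolipid breakdown and 3 of 9 of de novo ceramide synthesis, among genes that were higher and genes that were lower in CD1d-KO pMacs.

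The level of each gene in pMacs is given per length, as TPM. *Hexa*, a subunit of the lysosomal hexosaminidase that trims gangliosides, was the highest at 316 ± 47.0 TPM in WT (SD, n = 4 mice) and 338 ± 60.3 in CD1d-KO. It was followed in WT by the acid sphingomyelinase-like gene *Smpdl3a* (217 ± 39.3 TPM), the sphingosine phosphate lyase *Sgpl1* (162 ± 33.4), the catalytic subunit *Sptlc2* of serine palmitoyltransferase (134 ± 19.2) and the β-galactosidase *Glb1* (96.5 ± 15.7). At the lower end were the alkaline ceramidase *Acer2* (3.88 ± 0.98 TPM) and the ceramide synthase *Cers4* (1.08 ± 0.61). Neighbours in this order overlapped between WT mice except for *Hexa* with *Smpdl3a* and *Acer2* with *Cers4*, so that the order of the genes in between holds only over wider steps.

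**Figure D1:**
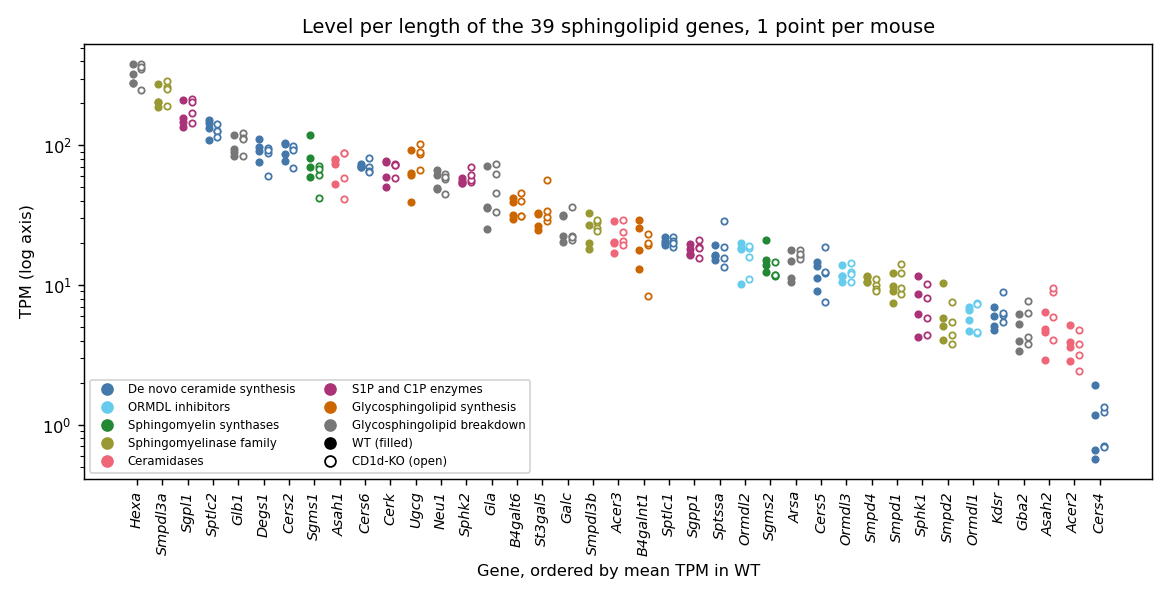
TPM of the 39 genes on a log axis, with 1 point per mouse, WT filled and CD1d-KO open, ordered by the WT mean and coloured by step of the pathway. Levels ran from 316 TPM for *Hexa* to 1.08 for *Cers4* in WT.

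Within families a single paralog or a pair of them made up most of the transcripts. *Cers2*, which makes very long-chain ceramides, and *Cers6*, which makes ceramides with shorter chains, gave 52.2 ± 2.91% and 40.4 ± 3.05% of the summed TPM of the 4 ceramide synthases in WT mice (SD, n = 4). *Sgms1* gave 83.2 ± 6.66% of the sphingomyelin synthase pair, and *Sphk2* 88.0 ± 4.43% of the sphingosine kinases. The acid ceramidase *Asah1* gave 70.3 ± 5.66% of the 4 ceramidases. In CD1d-KO mice these shares were 51.3%, 40.9%, 82.5%, 89.6% and 66.2%, each within 1 SD of the WT mean.

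None of the 39 genes differed between genotypes at the thresholds used for calling, which were more than a 1.5-fold difference together with an adjusted p under 0.01. This was 0 of 39 members by the quasi-likelihood test of edgeR, where 0.0383% of all tested genes were called, and 0 of 39 by DESeq2, where 0.873% were called. The edgeR fit called only 5 genes in all. The targeted gene *Cd1d1* was not among them, with an adjusted p of 0.233, or 0.000685 without the pair numbered 1. The study, which used DESeq2 with the same thresholds, lists *Sgms1* among the lipid genes significantly decreased in CD1d-KO pMacs. In the DESeq2 fit here, *Sgms1* had a log2 fold change of -0.43 and an adjusted p of 0.0235, short of both thresholds. At an adjusted p under 0.05 without a fold change limit, edgeR called 0 members (0.406% of tested genes) and DESeq2 called 2 (2.53%), *Ugcg* and *Sgms1*. At an unadjusted p under 0.05 in edgeR, 5 members were higher with CD1d missing (*Ugcg*, *Gla*, *Asah2*, *Arsa* and *St3gal5*), where the share among all tested genes was 7.35%, and 3 were lower (*Degs1*, *Sgms1* and *B4galnt1*), where it was 5.01%. Without the pair numbered 1, 2 were higher (*Ugcg* and *Gla*, background 5.55%) and 3 lower (*Degs1*, *Sgms1* and *Sgms2*, background 3.68%). The count of higher members was 3 without the pair numbered 3 and 3 without the pair numbered 5. Without the pair numbered 2, the higher members were *Ugcg*, *Gla*, *Asah2*, *Arsa*, *St3gal5* and *Smpdl3b*. For the fits without the pairs numbered 2, 3 and 5, the share among all tested genes was not computed.

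Read by pairs, 4 members were higher in CD1d-KO mice throughout all 4 pairs (*Ugcg*, *Gla*, *Arsa* and *Sgpl1*), as were 10.6% of tested genes. Another 5 members were lower in all 4 pairs (*Degs1*, *Sgms1*, *Cers2*, *Cers4* and *Smpd4*), as were 10.1% of tested genes. *Sgms1* was the 1 member whose CD1d-KO libraries all lay below its WT libraries (background 0.913%), and 0 members had all CD1d-KO libraries above (background 1.04%). The median log2 fold change of the 39 members, CD1d-KO over WT, was 0.038, and that of all tested genes 0.0047. Without the pair numbered 1 the median of the members was -0.015. For 28 members the fitted log2 fold change was smaller than 0.2 in size, and for 33 the 95% interval excluded a 1.5-fold difference in either direction.

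**Figure D2:**
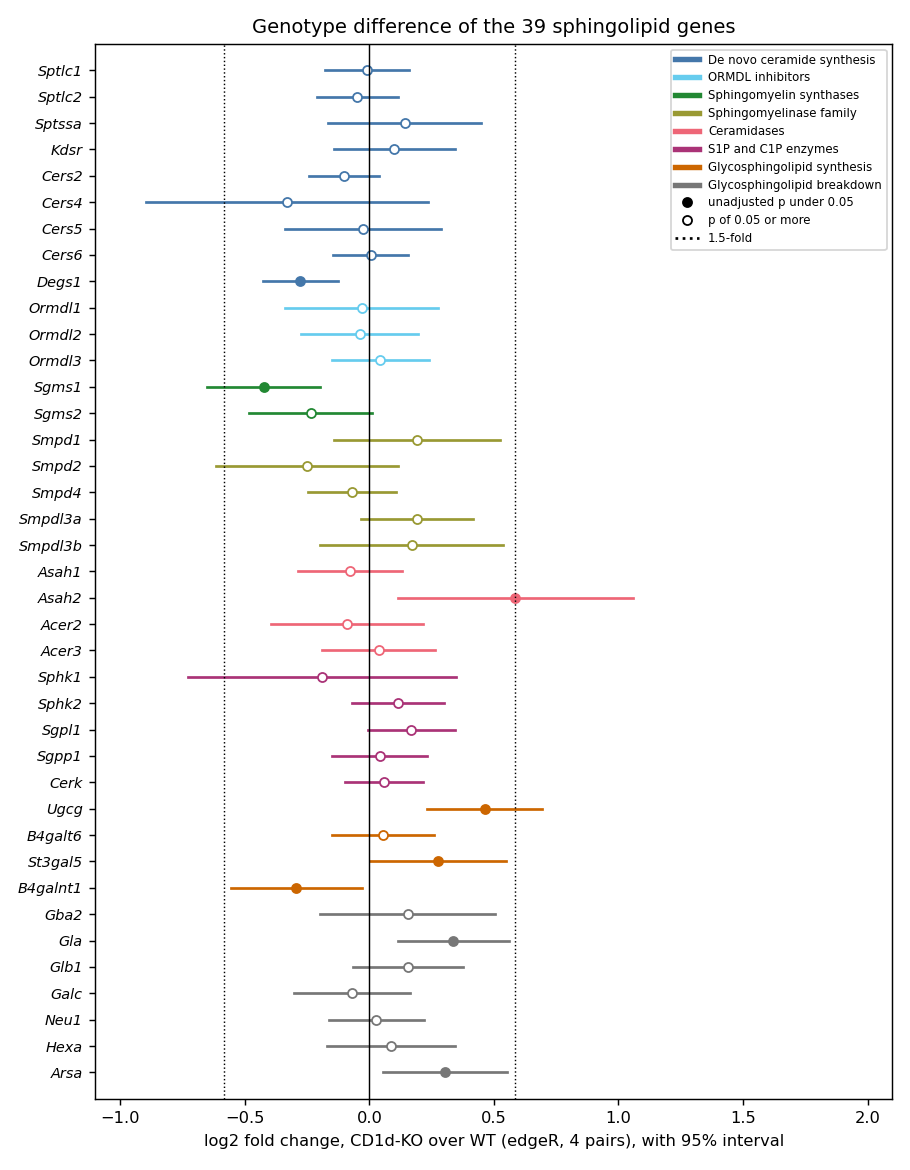
Fitted log2 fold change of each gene, CD1d-KO over WT, with its 95% interval from edgeR over 4 pairs, coloured by step, with filled points for an unadjusted p under 0.05 and dotted lines at 1.5-fold. The 8 filled points lie between -0.42 (*Sgms1*) and 0.59 (*Asah2*), and the intervals of 33 genes stay inside the dotted lines.

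Of the 9 genes of de novo ceramide synthesis, 1 was lower at an unadjusted p under 0.05 and 0 were higher. That gene was *Degs1* (ENSMUSG00000038633, chromosome 1 from 182275772 to 182282804), the dihydroceramide desaturase that completes ceramide. *Degs1* had 1852, 1855, 1519 and 1848 normalized counts in WT replicates 1, 2, 3 and 5, and 1549, 1637, 1182 and 1487 in the CD1d-KO replicates of the same numbers. Each CD1d-KO library lay below the WT library of its pair, although WT replicate 3 lay below CD1d-KO replicates 1 and 2. The log2 fold change was -0.28 (standard error 0.06, unadjusted p = 0.0029, adjusted p = 0.144 by Benjamini-Hochberg in edgeR). It was -0.28 without the pair numbered 1 (unadjusted p = 0.011, adjusted p = 0.378 in edgeR). On log2(TPM + 1) the difference fitted by limma was smaller, at -0.16, and without the replicate number in the model the unadjusted p was 0.0524 in edgeR. All alternatives gave adjusted p-values between 0.0547 and 0.997.

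The entry of the pathway did not show a difference of that size. *Sptlc2*, the catalytic subunit of serine palmitoyltransferase, had 1852, 1869, 2027 and 1583 normalized counts in WT replicates and 1631, 1758, 2130 and 1596 in their CD1d-KO partners. Its libraries were lower in CD1d-KO mice in 2 pairs and higher in the other 2, with a log2 fold change of -0.05 (95% interval -0.21 to 0.11), or 0.00 without the pair numbered 1. The partner subunits *Sptlc1* and *Sptssa* had log2 fold changes of -0.01 and 0.14, and *Sptlc1* had -0.02 without the pair numbered 1. *Sptssa*, the small subunit that activates the enzyme, had 324 normalized counts in the library labelled CD1d-KO replicate 1 and 190 to 224 in the other libraries, and its log2 fold change was -0.02 without that pair. The reductase *Kdsr*, which acts next, had 0.10, and 0.00 without that pair.

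Among the ceramide synthases, *Cers2* and *Cers4* were lower in all 4 pairs without passing at an unadjusted p under 0.05. *Cers2* had 1769, 2015, 1561 and 1720 normalized counts in WT replicates and 1637, 1920, 1446 and 1592 in their CD1d-KO partners, which are small and even steps within pairs between groups that overlap. Its log2 fold change was -0.10 with and without the pair numbered 1 (95% interval -0.24 to 0.04 over all pairs). *Cers2* lies 8.32 Mb from *Cd1d1* on chromosome 3. *Cers4*, the lowest member, had 38.96, 23.64, 24.03 and 39 normalized counts in WT replicates and 34.9, 14.9, 18.8 and 33.0 in their CD1d-KO partners. At so few counts the interval of its log2 fold change was wide, from -0.90 to 0.24 around -0.33, and the value was -0.40 without the pair numbered 1. *Cers6* and *Cers5* had log2 fold changes of 0.00 and -0.03, or -0.02 and -0.16 without the pair numbered 1, and *Cers6* ranged only from 3536 to 4266 normalized counts over the 8 mice.

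The ORMDL proteins hold back serine palmitoyltransferase when ceramide is plentiful. The 3 genes *Ormdl1*, *Ormdl2* and *Ormdl3* had log2 fold changes of -0.03, -0.04 and 0.04, and 0 of them had an unadjusted p under 0.05. Their 95% intervals ran from -0.34 to 0.28, from -0.27 to 0.19 and from -0.15 to 0.24. The values were -0.12, -0.06 and 0.04 without the pair numbered 1. *Ormdl2* gave 47.6 ± 6.86% of their summed TPM in WT mice and 46.6 ± 4.61% in CD1d-KO mice.

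Both sphingomyelin synthases were lower in CD1d-KO pMacs in the fit, and in each of the alternatives run. *Sgms1* (ENSMUSG00000040451, chromosome 19 from 32122727 to 32389714) transfers phosphocholine to ceramide in the Golgi. It had 2350, 1574, 1423 and 1883 normalized counts in WT replicates and 1394, 1406, 1105 and 1420 in their CD1d-KO partners, so that the groups did not overlap, with 1420 as the highest CD1d-KO and 1423 as the lowest WT value. The log2 fold change was -0.42 (standard error 0.10, unadjusted p = 0.0028, adjusted p = 0.144 by edgeR). With DESeq2 the adjusted p was 0.0235, and the alternatives spanned 0.0057 to 0.997. The pair numbered 1 held the widest gap, and without it the log2 fold change was -0.31 (unadjusted p = 0.0091, adjusted p = 0.370 in edgeR). The tested antisense gene *2700046G09Rik* overlaps *Sgms1*, and whether the counting used strand is not given in the sources used here.

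*Sgms2* encodes the synthase that also acts at the plasma membrane. It ranged from 446 to 782 normalized counts among the WT mice and 453 to 554 in the CD1d-KO mice, lower in 3 of 4 pairs, with a log2 fold change of -0.24 (95% interval -0.48 to 0.01, unadjusted p = 0.0586 in edgeR). In the library labelled CD1d-KO replicate 1 it was higher than in its WT partner, and without that pair the log2 fold change was -0.36 (unadjusted p = 0.0074, adjusted p = 0.341 in edgeR). The summed TPM of the synthases was 97.9 in WT and 72.9 in CD1d-KO mice.

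The sphingomyelinase family, whose sphingomyelinases release ceramide from sphingomyelin, gave 0 of 5 genes at an unadjusted p under 0.05. It includes the sphingomyelinase-like phosphodiesterases *Smpdl3a* and *Smpdl3b*, named for their sequence. *Smpd1*, the acid sphingomyelinase of lysosomes, had 197, 228, 181 and 282 normalized counts in WT replicates and 293, 205, 246 and 263 in their CD1d-KO partners. It was higher in 2 pairs and lower in 2, and its log2 fold change went from 0.19 (95% interval -0.14 to 0.52) to 0.05 without the pair numbered 1. *Smpd4*, a neutral sphingomyelinase, was lower in all 4 pairs by small steps, with 328, 369, 324 and 343 normalized counts in WT replicates and 312, 331, 321 and 335 in their CD1d-KO partners (log2 fold change -0.07 with and without the pair numbered 1, 95% interval -0.25 to 0.11 over all pairs). *Smpd2*, *Smpdl3a* and *Smpdl3b* had log2 fold changes of -0.25, 0.19 and 0.17. They were -0.25, 0.12 and 0.00 without the pair numbered 1.

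Of the 4 ceramidases, which cut ceramide into sphingosine and a fatty acid, 1 was higher at an unadjusted p under 0.05. *Asah2* (ENSMUSG00000024887, chromosome 19 from 31982597 to 32108211), the neutral ceramidase, had the largest fitted difference of the members. It had 115, 239, 306 and 212 normalized counts in WT replicates and 239, 197, 459 and 409 in their CD1d-KO partners. The CD1d-KO library was higher in pairs 1, 3 and 5 and lower in pair 2, and the groups overlapped. The log2 fold change was 0.59 (standard error 0.20, unadjusted p = 0.021, adjusted p = 0.293 in edgeR), and without the pair numbered 1 it was 0.44 (unadjusted p = 0.080, adjusted p = 0.608). *Asah2* lies on the same strand as *Sgms1*, with 14.5 kb between both genes, and the neighbours differed in opposite directions.

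*Asah1*, the lysosomal acid ceramidase, had 1543, 1388, 1960 and 1732 normalized counts in WT replicates and 1755, 1150, 1662 and 1737 in their CD1d-KO partners. It was higher in CD1d-KO in 2 pairs and lower in 2, and its log2 fold change was -0.08 (95% interval -0.29 to 0.13), or -0.17 without the pair numbered 1. The alkaline ceramidases *Acer2* and *Acer3* had log2 fold changes of -0.09 and 0.04, or -0.09 and -0.01 without that pair.

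Sphingosine is phosphorylated by the sphingosine kinases and its phosphate is destroyed by the lyase *Sgpl1* or recycled by the phosphatase *Sgpp1*, while *Cerk* phosphorylates ceramide itself. Of these 5 genes 0 had an unadjusted p under 0.05. *Sgpl1* was higher in all 4 pairs, with 4782, 5431, 8465 and 6092 normalized counts in WT replicates and 5805, 5698, 8925 and 7245 in their CD1d-KO partners. The mice of both groups overlapped widely, and the log2 fold change was 0.17 (95% interval -0.01 to 0.34, unadjusted p = 0.0563 in edgeR), or 0.13 without the pair numbered 1. *Sphk1*, the inducible kinase of the cytosol, had 84.7, 81.7, 220 and 146 normalized counts in WT replicates and 69.8, 135, 175 and 81.3 in their CD1d-KO partners. It varied 3.15-fold among the 8 mice and was lower in CD1d-KO in 3 of 4 pairs, with a log2 fold change of -0.19 (95% interval -0.73 to 0.35), or -0.16 without the pair numbered 1. *Sphk2*, *Sgpp1* and *Cerk* had log2 fold changes of 0.11, 0.04 and 0.06, or 0.18, 0.08 and 0.09 without that pair. *Sphk2* overlaps *Dbp* and *Rpl18* on the opposite strand.

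Of the 4 genes of glycosphingolipid synthesis, 2 had an unadjusted p under 0.05 with a higher and 1 with a lower level in CD1d-KO pMacs. *Ugcg* (ENSMUSG00000028381, chromosome 4 from 59189257 to 59222833) adds glucose to ceramide and so opens this branch. It had 1237, 2523, 3543 and 2354 normalized counts in WT replicates and 2196, 3340, 4299 and 2990 in their CD1d-KO partners. Every CD1d-KO library lay above the WT library of its pair, while the groups overlapped because the mice of replicate 3 were high and those of replicate 1 low in both genotypes. The log2 fold change was 0.46 (standard error 0.10, unadjusted p = 0.0019, adjusted p = 0.130 in edgeR), a 1.38-fold difference. DESeq2 gave an adjusted p of 0.00517, within a span of 0.00396 to 0.997 over the alternatives. Without the pair numbered 1, which held the largest step, the log2 fold change was 0.34 (unadjusted p = 0.0041, adjusted p = 0.277 in edgeR).

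Downstream of *Ugcg*, the lactosylceramide synthase *B4galt6* had a log2 fold change of 0.05, or 0.02 without the pair numbered 1. Its paralog *B4galt5*, which is not a member, had a mean of 151.9 TPM in WT against 35.65 for *B4galt6*. *B4galt5* was higher in CD1d-KO in all 4 pairs, as were 10.6% of tested genes (log2 fold change 0.16, unadjusted p = 0.085 in edgeR). *St3gal5*, which adds sialic acid to lactosylceramide and makes the first ganglioside, had 447, 700, 567 and 672 normalized counts in WT replicates and 511, 638, 768 and 1017 in their CD1d-KO partners. It was higher in 3 of 4 pairs, with CD1d-KO replicate 5 above all other mice (log2 fold change 0.28, standard error 0.12, unadjusted p = 0.0489, adjusted p = 0.400 in edgeR). *B4galnt1*, which acts after it and adds a further sugar to the ganglioside, had 602, 459, 324 and 614 normalized counts in WT replicates and 489, 493, 222 and 447 in their CD1d-KO partners. It was lower in 3 of 4 pairs, in replicate 2 slightly higher (log2 fold change -0.29, standard error 0.11, unadjusted p = 0.0331, adjusted p = 0.354 in edgeR). Without the pair numbered 1 the log2 fold changes were 0.30 for *St3gal5* and -0.29 for *B4galnt1* (unadjusted p = 0.072 and 0.079 in edgeR).

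Lysosomal breakdown of glycosphingolipids was represented by 7 genes, of which 2 had an unadjusted p under 0.05. The fitted value was above 0 for 6 of the 7 genes, and for 4 without the pair numbered 1, where 51.0% of all tested genes were fitted above 0 over all pairs. The median of the 7 was 0.15, and 0.04 without that pair. *Gla* (ENSMUSG00000031266, chromosome X from 134588149 to 134601125), the α-galactosidase, had 666, 1189, 2290 and 1095 normalized counts in WT replicates and 911, 1346, 2459 and 1681 in their CD1d-KO partners. It was higher in all 4 pairs, by steps smaller than the spread between mice of different replicate numbers. The log2 fold change was 0.34 (standard error 0.10, unadjusted p = 0.0086, adjusted p = 0.212 in edgeR), and 0.30 without the pair numbered 1 (unadjusted p = 0.036, adjusted p = 0.503).

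*Arsa* (ENSMUSG00000022620, chromosome 15 from 89472476 to 89477425), the arylsulfatase that removes sulfate from sulfatide, had 324, 331, 300 and 417 normalized counts in WT replicates and 412, 386, 466 and 425 in their CD1d-KO partners. WT replicate 5 reached into the range of the CD1d-KO mice, while the other 3 WT mice lay below all of them. The log2 fold change was 0.30 (standard error 0.11, unadjusted p = 0.022, adjusted p = 0.299 in edgeR), and 0.29 without the pair numbered 1 (unadjusted p = 0.066, adjusted p = 0.583). The other members of this step, *Gba2*, *Glb1*, *Galc*, *Neu1* and *Hexa*, had log2 fold changes of 0.15, 0.15, -0.07, 0.03 and 0.09. Leaving out the pair numbered 1, they were 0.09, 0.04, -0.17, -0.06 and -0.04. In that pair *Glb1* and *Hexa* were both higher in CD1d-KO by 0.48 on the log2 scale.

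**Figure D3:**
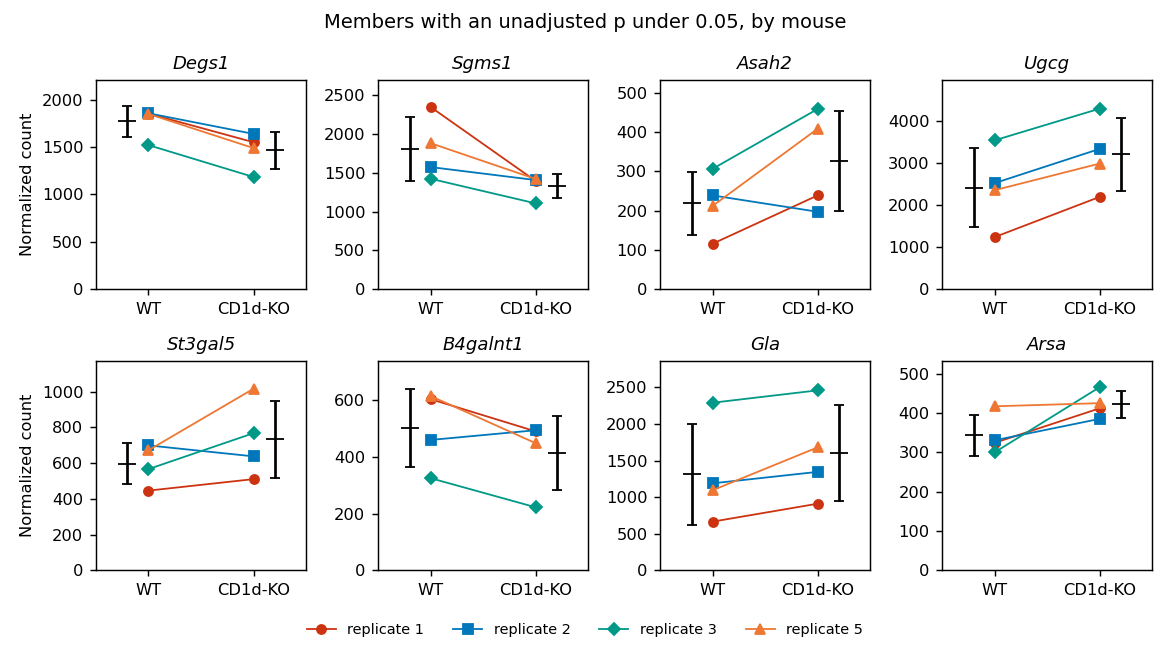
Normalized counts of the 8 genes with an unadjusted p under 0.05, with 1 line per pair from the WT to the CD1d-KO mouse and the mean ± SD of each genotype beside the points (n = 4). *Ugcg*, *Gla* and *Arsa* are higher and *Degs1* and *Sgms1* lower in CD1d-KO in 4 of 4 pairs, while *Asah2*, *St3gal5* and *B4galnt1* lie the other way round in the pair numbered 2.

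*Ugcg* and *Sgms1* compete for ceramide, so their levels per length were set against each other within each mouse. The TPM of *Ugcg* over that of *Sgms1* was 0.334, 0.905, 1.57 and 0.758 in WT and 0.946, 1.41, 2.45 and 1.32 in CD1d-KO replicates. The ratio was higher in CD1d-KO mice in 4 of 4 pairs, by 2.83-fold in the pair numbered 1 and by 1.55-, 1.56- and 1.74-fold in the pairs numbered 2, 3 and 5. The groups overlapped, since WT replicate 3 exceeded CD1d-KO replicates 1, 2 and 5. With *Sgms2* added to *Sgms1*, the ratio was higher by 1.53- to 2.72-fold. *St3gal5* over *B4galnt1* was higher in 3 of 4 pairs and lower in the pair numbered 2, where it was 0.859-fold. These ratios were chosen with the differences of the single genes known and are given without a test.

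**Figure D4:**
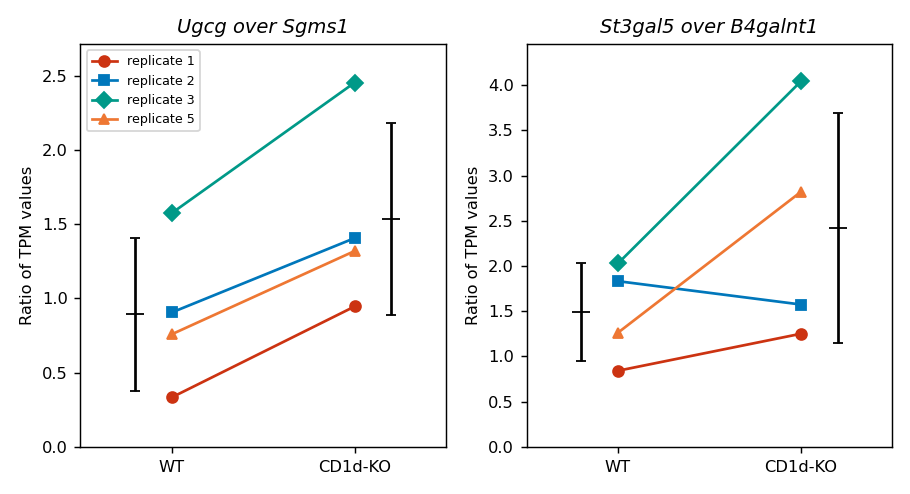
Ratio of TPM values within each mouse, *Ugcg* over *Sgms1* on the left and *St3gal5* over *B4galnt1* on the right, with 1 line per pair and the mean ± SD of each genotype (n = 4). The left ratio is higher in CD1d-KO in 4 of 4 pairs, with means of 0.893 in WT and 1.53 in CD1d-KO, and the right one in 3 of 4.

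The mice of different replicate numbers differed more than the genotypes. Over the 39 members the median share of the variance of log2 normalized counts that lay between the 4 pairs was 73.1%, and the median share between genotypes was 7.38%. With 4 pairs but 2 genotypes, the share between pairs is expected to be the larger even without any effect. The shares are not corrected for this, and were not computed for all tested genes. In *Sgms1* and *Arsa* more of the variance lay between genotypes than between pairs. Replicate 3 was the highest of both genotypes in 15 members, among them *Ugcg*, *Gla*, *Asah2*, *Sgpl1*, *Hexa* and *Glb1*, where 17.6% of tested genes showed this. The median log2 ratio of the members within a pair was 0.179 in the pair numbered 1 and -0.073, -0.0085 and 0.0041 in the pairs numbered 2, 3 and 5. In the pair numbered 1 the markers of B cells summed to 535.5 TPM in WT and 643.0 in CD1d-KO, and over the 4 pairs they were higher in CD1d-KO in 2. The sum of 6 neutrophil genes was higher in CD1d-KO in 4 of 4 pairs, at 11.6 to 16.1 TPM in WT and 18.4 to 25.2 in CD1d-KO mice. Most of it was *S100a8*, with a mean of 11.9 TPM in WT and 21.2 in CD1d-KO, while *Mmp8* and *Camp* had lower means in CD1d-KO (0.635 and 0.325 TPM against 1.07 and 0.532), *S100a9* was at 0 in all CD1d-KO libraries and *Ly6g* in all libraries. The part of other cells, and of the kinds of macrophage, in the sphingolipid differences was not tested.

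**Figure D5:**
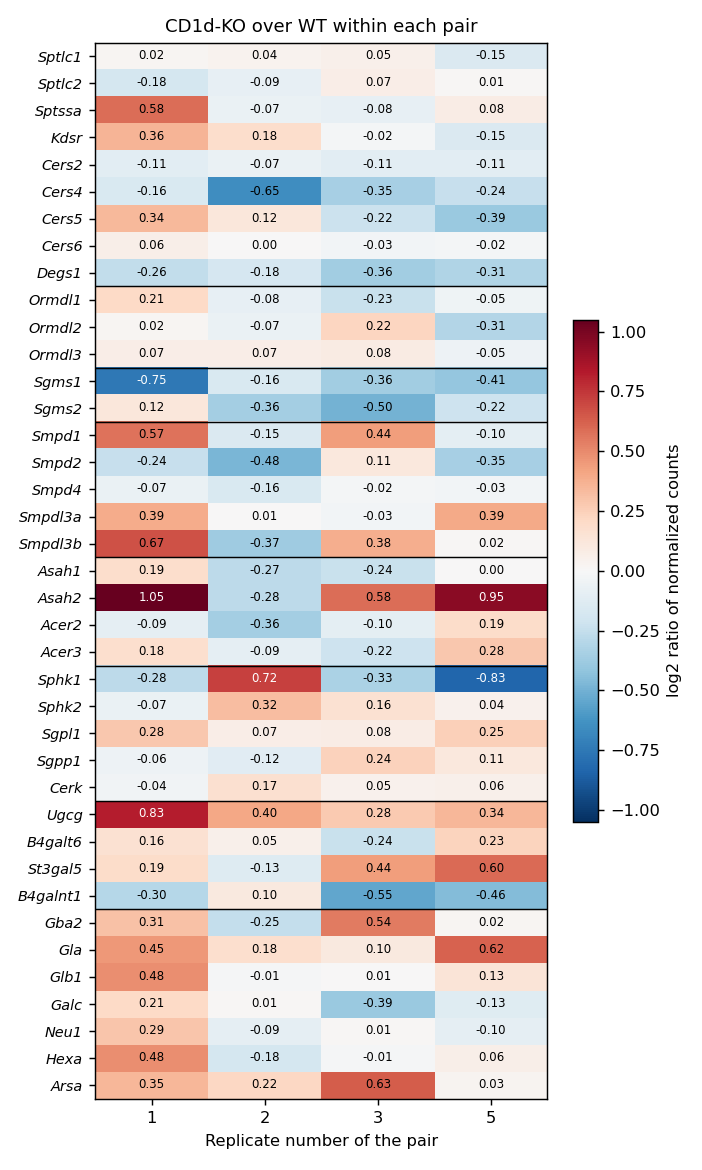
Log2 ratio of normalized counts, CD1d-KO over WT, in each of the 4 pairs for the 39 genes, grouped by step of the pathway between black lines. The column of the pair numbered 1 has the highest median (0.179), and *Degs1*, *Sgms1* and *Ugcg* keep their direction across all columns.

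Another 41 genes of sphingolipid metabolism, transport and signalling were looked up beside the members, among them further isoforms, saposins, transfer proteins and the sphingosine phosphate receptors. Of these 40 were found, 26 passed the filter, and 7 had no count in any library. At an unadjusted p under 0.05 in edgeR, CD1d-KO pMacs had a higher level of 2 and a lower level of 0 of these 26. Among all tested genes the shares were 7.35% and 5.01%, so the count of 2 was near the background. An adjusted p under 0.05 was reached by 0 of them (background 0.406%). The higher ones were the plasma membrane sialidase *Neu3*, whose normalized counts were 18.7 ± 4.85 for WT and 31.1 ± 5.35 for CD1d-KO mice (SD, n = 4, log2 fold change 0.75, edgeR adjusted p = 0.286), and *B3gnt5*, which starts the lacto-series glycosphingolipids, with 35.9 ± 10.2 and 52.0 ± 17.4 (log2 fold change 0.53, edgeR adjusted p = 0.360). Both had few counts. Without the pair numbered 1, 0 of the other sphingolipid genes had an unadjusted p under 0.05 in edgeR (background 5.55% higher and 3.68% lower). The log2 fold changes of *Neu3* and *B3gnt5* were then 0.71 and 0.42.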

How the data were processed

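pMacs of 4 WT and 4 CD1d-KO mice were profiled with 1 polyA library per mouse. The authors trimmed reads with cutadapt, aligned them to GRCm38 with STAR (2.5.2a) and quantified Ensembl genes with RSEM (1.3.0). The deposited expected counts are estimates, not normalized, in which reads that match several genes are divided, so overlapping or near-identical genes depend on each other. All counts were whole in every library for 28 of the 39 members. The deposited TPM values are scaled by the authors to length and library, and were used for levels and ratios. Symbols and positions came from GENCODE M21, which held 48435 of the 48795 identifiers.

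Expected counts were rounded, filtered with filterByExpr, normalized by TMM and fitted with genotype and replicate number, as the study did, using the quasi-likelihood test of edgeR 4.0.16 in R 4.3.3 with Benjamini-Hochberg adjustment over 13040 genes. Normalized counts were obtained by scaling each library to the mean effective size of all 8. The fit was tested on simulated counts. DESeq2 1.42.0 (independent filtering at 0.01) and limma 3.58.1 on log2(TPM + 1) and log2(TPM + 0.1) served as alternatives, beside other scaling factors and filters, fits without the replicate number and fits without each pair. Deviations from the group mean correlated between mice of the same replicate number (r = 0.487, 0.387, 0.505 and 0.207 for numbers 1, 2, 3 and 5, Pearson across genes). The highest r of the same WT mice with a CD1d-KO mouse of another number was -0.0148, 0.0254, 0.0586 and 0.220. The numbers were taken to pair the samples, although for number 5 these correlations do not single out its partner. The fit with DESeq2 and without the pair numbered 1 was chosen after seeing the data.

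The rule for members used no measured value, but members and lists were chosen with earlier results of these data known. Values of every library are given for members with an unadjusted p under 0.05 or the same direction in all 4 pairs, and for *Sptlc2*, *Ugcg*, *Sgms1*, *Smpd1*, *Asah1* and *Sphk1*. Other sphingolipid genes are named at an unadjusted p under 0.05, and *B4galt5* is named beside *B4galt6* whatever its p-value.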

Additional observations from a re-analysis of the deposited data

Results flagged for a closer look

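In 5 of the 78 sets of 4 values (39 genes in 2 genotypes), 1 mouse lay far from the other 3, its gap to the nearest of them being most of the range and above the 95% limit of Dixon's test. Chance flags about 1 in 20 such sets. *Degs1* had 1519 normalized counts in WT replicate 3, while the other WT mice had 1848 to 1855. *Sgms1* had 1105 in CD1d-KO replicate 3 (others 1394 to 1420), and *B4galnt1* had 222 in the same library (others 447 to 493). *Asah1* had 1150 in CD1d-KO replicate 2 (others 1662 to 1755). *Smpdl3b* had 478 in the library labelled CD1d-KO replicate 1 (others 518 to 525). In all 5 cases the partner of the same replicate number was also the lowest of its genotype.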

How the results depend on the processing

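The count of members past both thresholds was 0 in every alternative. At an adjusted p under 0.05 without a fold change limit, the count was 0 in the main edgeR fit and 2 in DESeq2. Fits without each pair gave 2 to 4 members lower and 2 to 6 higher at an unadjusted p under 0.05, and a median log2 fold change of -0.0149 to 0.0503. Without the replicate block, 1 member was lower (*Sgms1*) and 1 higher (*Arsa*), and without the block and without CD1d-KO replicate 1, 1 was lower (*Sgms1*) and 0 higher. On log2(TPM + 1), limma gave 1 lower and 3 higher, and on log2(TPM + 0.1) 1 lower and 2 higher. DESeq2 without the pair numbered 1 gave 3 lower and 2 higher. Testing genes without a filter gave 3 members an adjusted p under 0.05, and the fit without the pair numbered 2 gave 1. By both thresholds, these fits called 236 and 22 of all genes, where the main fit called 5. Shares of all genes at an adjusted p under 0.05 were not computed for them. At an unadjusted p under 0.05, only the alternative without the pair numbered 1 in edgeR has such a share. None of the 8 members with an unadjusted p under 0.05 changed direction in these fits, while 0 to 6 of the 39 members did per alternative. The cause of these differences was not tested.

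The standard errors of the members ran from 0.06 to 0.24 on the log2 scale, with a median of 0.10 and the largest in *Cers4*. The 1.38-fold difference of *Ugcg* had an adjusted p of 0.130 in edgeR. A difference of that size lies under the 1.5-fold limit, so both thresholds together leave it uncalled at any depth or number of mice. In DESeq2 *Ugcg* had an adjusted p of 0.00517 and missed the call on fold change alone. By adjusted p alone, differences of that size or smaller could go uncalled in edgeR at this depth and number of mice. Intervals and p-values take the labels as given, and the library labelled CD1d-KO replicate 1 contains *Cd1d1* reads.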
